A study of Mus musculus with 4 samples.

Results

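The 10 genes described here are the glucocorticoid receptor Nr3c1, the related mineralocorticoid receptor Nr3c2, the steroid-activating enzyme Hsd11b1 and 7 genes known to respond to glucocorticoids: Fkbp5, Tsc22d3, Per1, Zbtb16, Klf9, Sult1a1 and Mt1. They were picked by symbol from the 31053 genes counted in single heart cells of mice, and all 10 were found in each of the 4 libraries. The high_fibre group was offspring of mothers given a chow rich in resistant starch (SF11-025) during pregnancy and lactation. The control_diet group was offspring of mothers on the chow low in resistant starch (SF09-028). From weaning at 3 weeks all offspring ate standard chow, and hearts were taken at 6 weeks. Hearts were digested by perfusion with collagenase IV and dispase II, and live, nucleated, metabolically active cells were sorted for 10x Genomics 3′ libraries. There were 2 libraries per diet. The labels give no strain, no sex and no number of hearts per library, and they do not say that the libraries came from different litters. The p-values for diet therefore set a difference against the variation between libraries of the same diet, and that variation may be technical. Those for cell class and sex set it against the variation left after differences between libraries are removed.

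Glucocorticoids are steroid hormones of the adrenal gland. They cross the cell membrane, bind the receptor Nr3c1, which chaperones hold ready in the cytoplasm, and the hormone-bound receptor enters the nucleus and binds DNA at response elements built from copies of a short half-site. The enzyme Hsd11b1 makes active hormone from its inert keto form inside the cell, so a tissue can raise its own hormone level. Textbook targets include feedback regulators such as Fkbp5, which lowers the affinity of the receptor for hormone, and anti-inflammatory genes such as Tsc22d3, whose product is called GILZ.

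The files held 26765 barcodes, with 56582577 and 69600492 unique molecular identifiers (UMIs, each standing for 1 captured RNA molecule) in the high_fibre libraries, against 59317334 and 27577599 in the control_diet libraries. Some barcodes occurred in more than 1 library. Each pair of libraries shared 463 to 747 barcodes, and barcodes of control_diet 2 came back in another library at a median of 3.51% of their own UMIs. Such a barcode was kept only where it had at least 5 times the UMIs of the next library, which left 21885 of the 23944 barcodes that passed quality filters. Cells were then put into 5 classes by marker genes: 6282 fibroblasts (Col1a1 and Dcn), 6779 endothelial cells (Pecam1 and Cdh5), 337 endocardial cells (Npr3 beside the endothelial markers), 3123 macrophages (C1qa) and 1016 pericytes (Kcnj8 and Vtn). Another 786 cells carried markers of 2 or more classes and were left out, as were 3562 others that met no full gate. Markers that the gates did not use followed the names in all 4 libraries. In endocardial cells, for example, 5 further endocardial markers together made up 6085 and 6106 UMIs per 1000000 (CPM) in high_fibre libraries, against 6134 and 6333 CPM in control_diet libraries. All levels below are CPM of the summed UMIs of a class in 1 library, scaled by the trimmed mean of M-values (TMM), and compare 1 gene across classes or libraries, never 1 gene with another. A class sum does not tell fewer expressing cells from less RNA per cell.

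Across the classes, the receptor Nr3c1 was present in all 5 and lowest in endocardial cells. Class means of the enzyme fell to 1.43 CPM in macrophages, those of Sult1a1 to 10.8 CPM in fibroblasts and those of Mt1 to 14.1 CPM in endothelial cells. Fkbp5 fell to 1.72 CPM in endocardial cells and Nr3c2 to 1.78 CPM in macrophages. Pairs of classes were compared with the library as a block in edgeR, and Benjamini-Hochberg adjustment ran over the 13938 genes tested. Many genes differ between cell types, so the counts must be read against that background. Of the 10 genes, 8 differed between fibroblasts and endothelial cells (74.7% of all genes tested did), 9 between fibroblasts and endocardial cells (48.0%), 10 between fibroblasts and macrophages (78.2%) and 6 between fibroblasts and pericytes (54.3%). Between endothelial and endocardial cells 5 differed (41.4%), between endothelial cells and macrophages 8 (73.0%), and between endothelial cells and pericytes 5 (56.9%). Endocardial cells and macrophages differed in 8 (60.1%), endocardial cells and pericytes in 6 (44.3%), and macrophages and pericytes in 9 (67.3%). The largest excess over the background was between fibroblasts and endocardial cells. The TMM factors were 0.754 to 0.828 for macrophages and 1.22 to 1.26 for pericytes. Against plain scaling to total UMIs they moved the median of all genes, and every gene, by 0.64 (log2) for macrophages over pericytes and by −0.30 for fibroblasts over macrophages, so small differences that involve these classes depend on the scaling.

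**Figure D1:**
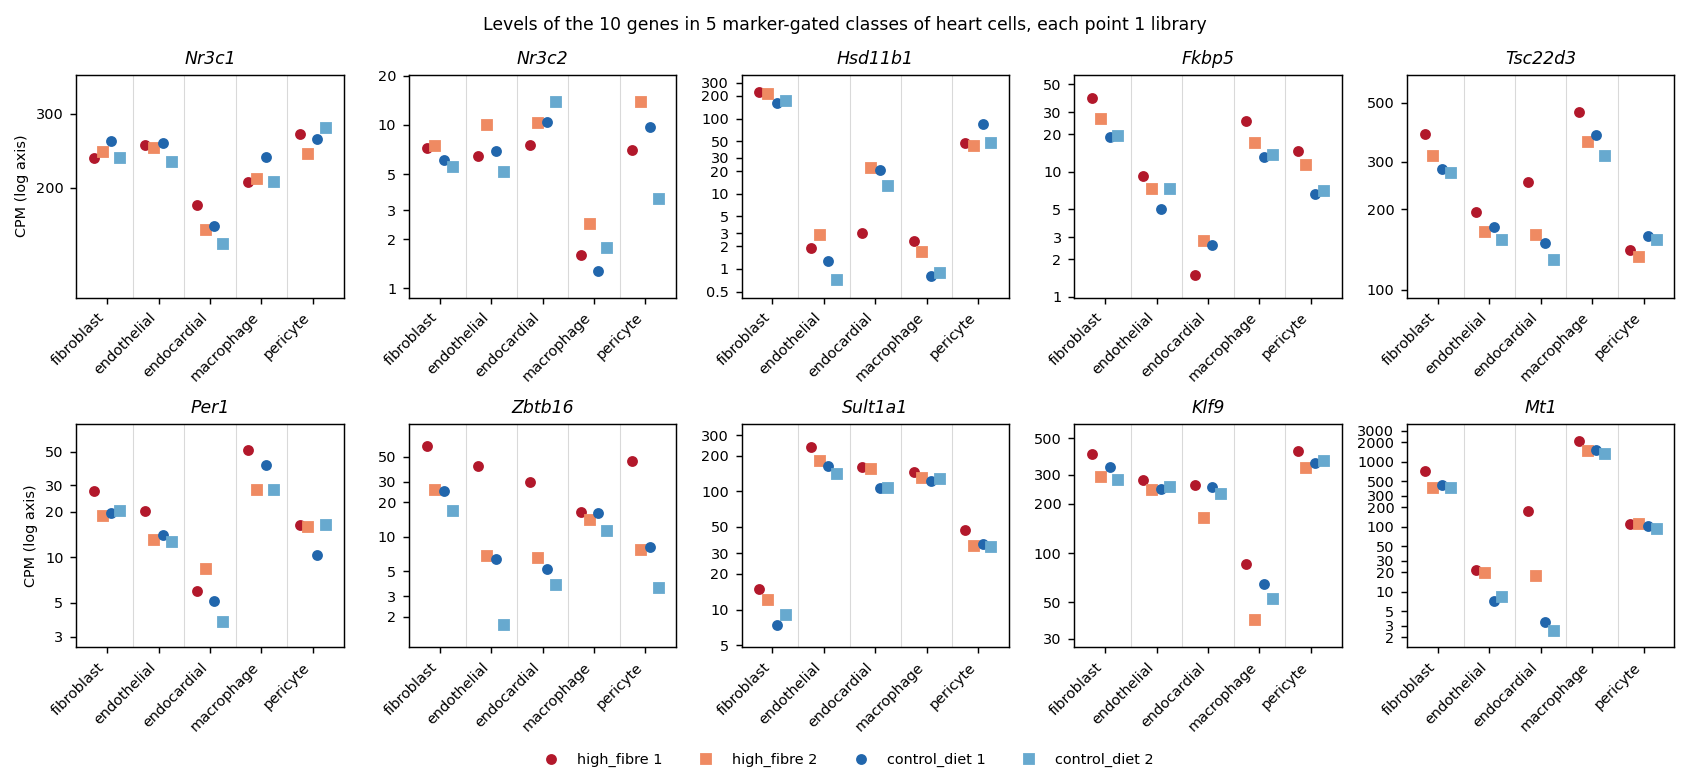
Level of each of the 10 genes (CPM, log axis) in the 5 classes of heart cells, 1 point per library, with high_fibre libraries in red and orange and control_diet libraries in blue. Nr3c1 lies between 147 and 277 CPM everywhere, Hsd11b1 is highest in fibroblasts, Sult1a1 in endothelial cells and Mt1 in macrophages. The Fkbp5 value of 0 in endocardial cells of control_diet 2 cannot be drawn on a log axis.

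Nr3c1 (chr18:39410545-39519421, minus strand, GRCm38, GENCODE annotation, as for all positions below unless RefSeq is named) averaged 262 ± 15.9 CPM in pericytes, 247 ± 11.04 in endothelial cells, 243 ± 10.9 in fibroblasts, 215 ± 14.4 in macrophages and 162 ± 14.6 in endocardial cells (SD, n = 4 libraries, as for the means below). The 3 leading classes did not differ from their neighbours in this order (edgeR, adjusted p = 0.253 and 0.742). Fibroblasts exceeded macrophages by 0.18 on the log2 scale (adjusted p = 0.00387), and macrophages exceeded endocardial cells by 0.41 (adjusted p = 6.76e-06). Both of these steps rest on the scaling: the first was 0.11 with RLE normalization (adjusted p = 0.0720), and the second was 0.01 with scaling to total UMIs (adjusted p = 0.927). Endothelial cells exceeded endocardial cells by 0.61 (edgeR, adjusted p = 1.42e-08), and fibroblasts exceeded them by 0.59 (adjusted p = 1.93e-08). Endocardial cells over pericytes stood at −0.69 (adjusted p = 4.20e-09). Against scaling to total UMIs, TMM moved these folds by 0.08, 0.10 and 0.24.

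Nr3c2 (chr8:76899442-77245012, plus strand), which also binds glucocorticoids and in epithelia mediates the effects of aldosterone, was sparse. It averaged 10.5 ± 2.58 CPM in endocardial cells, 8.51 ± 4.37 in pericytes, 7.12 ± 2.07 in endothelial cells and 6.58 ± 0.891 in fibroblasts, and none of these neighbours differed (edgeR, adjusted p = 0.269 to 0.631). Macrophages stood lowest at 1.78 ± 0.509 CPM, and fibroblasts exceeded them by 1.89 on the log2 scale (adjusted p = 8.00e-09).

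Hsd11b1 (chr1:193221634-193264075, minus strand) formed the steepest series of the set's upstream genes. It averaged 191 ± 31.7 CPM in fibroblasts, 55.3 ± 19.3 in pericytes, 14.6 ± 8.83 in endocardial cells, 1.67 ± 0.898 in endothelial cells and 1.43 ± 0.725 in macrophages. Each step down to endothelial cells passed the test, at log2 differences of 1.82 (edgeR, adjusted p = 8.62e-06), 1.74 (0.00431) and 3.20 (0.000902). The step between pericytes and endocardial cells was 1.10 with a stricter marker gate (adjusted p = 0.0909). The endocardial level rests on few cells: 2 and 24 UMIs in high_fibre libraries, against 24 and 10 in control_diet libraries, and 1 cell held 15 of the 24 in control_diet 1 and 1 cell 9 of the 10 in control_diet 2. Endothelial cells and macrophages did not differ (0.19, adjusted p = 0.797). The pericyte level was 21.0% and 20.1% of the fibroblast level in the high_fibre libraries, against 52.9% and 27.7% in the control_diet libraries. Fibroblast markers outside the gate stood in pericytes at 2.07% to 2.43% of their fibroblast level when summed, but unevenly: Tcf21 stood at 25.7% and 20.2% in high_fibre libraries, against 20.4% and 17.9% in control_diet libraries, Col3a1 at 18.5% and 18.3%, against 16.3% and 14.3%, and the other 4 at no more than 1.05%. On the other strand Hsd11b1 overlaps Lamb3 and 4930570N18Rik, and whether counting used the strand is not given in the sources used here, so reads of these genes may mix.

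Fkbp5 (chr17:28399094-28517527, minus strand), a co-chaperone of the receptor, averaged 26.0 ± 9.46 CPM in fibroblasts, 17.3 ± 5.71 in macrophages, 9.90 ± 3.74 in pericytes, 7.24 ± 1.76 in endothelial cells and 1.72 ± 1.28 in endocardial cells. Fibroblasts exceeded macrophages by 0.58 (log2; edgeR, adjusted p = 5.76e-06) and macrophages exceeded pericytes by 0.78 (adjusted p = 0.000598), a step that was 0.13 with scaling to total UMIs (adjusted p = 0.585). Pericytes and endothelial cells did not differ beyond the threshold (0.48, adjusted p = 0.0516), and endothelial exceeded endocardial cells by 1.87 (adjusted p = 0.000469). Endocardial cells held 1 and 3 Fkbp5 UMIs in the high_fibre libraries, against 3 and 0 in the control_diet libraries; 0 UMIs in control_diet 2 allows up to 3.76 CPM (3 counts, counting error only).

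Tsc22d3 (chrX:140539528-140600659, minus strand), which encodes the anti-inflammatory protein GILZ, averaged 377 ± 60.4 CPM in macrophages, 313 ± 48.9 in fibroblasts, 173 ± 54.7 in endocardial cells, 171 ± 17.4 in endothelial cells and 146 ± 12.1 in pericytes. Fibroblasts exceeded endocardial cells by 0.89 on the log2 scale (edgeR, adjusted p = 1.64e-07), while endocardial and endothelial cells did not differ (−0.02, adjusted p = 0.917). The order of macrophages over fibroblasts (0.27, adjusted p = 0.00483) turned to −0.03 with scaling to total UMIs, and that of endothelial cells over pericytes (0.24, adjusted p = 0.0395) turned to −0.08.

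Per1 (chr11:69095217-69109960, plus strand), a repressor of the circadian clock that glucocorticoids induce, averaged 37.0 ± 11.3 CPM in macrophages, 21.5 ± 3.95 in fibroblasts, 15.0 ± 3.49 in endothelial cells, 14.8 ± 2.94 in pericytes and 5.82 ± 1.92 in endocardial cells. All steps except that between endothelial cells and pericytes (0.02, adjusted p = 0.939) passed the test, at log2 differences of 0.78, 0.52 and 1.27 (edgeR, adjusted p = 2.44e-08, 4.66e-05 and 0.00249). Zbtb16 (chr9:48654297-48836222, minus strand), which encodes the transcription factor PLZF, averaged 32.2 ± 19.97 CPM in fibroblasts, 16.3 ± 19.7 in pericytes, 14.4 ± 2.43 in macrophages, 14.0 ± 18.2 in endothelial cells and 11.4 ± 12.5 in endocardial cells. Its SD reached the size of its mean in 3 classes, and no class differed from its neighbour in this order (adjusted p = 0.119 to 0.932). Between classes further apart, fibroblasts exceeded endothelial cells by 1.44 (edgeR, adjusted p = 0.00216) and macrophages by 1.13 (adjusted p = 0.0133). Their excess over endocardial cells did not pass (1.66, adjusted p = 0.0841).

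Klf9 (chr19:23141226-23168134, plus strand), a zinc finger repressor, averaged 366 ± 37.2 CPM in pericytes, 326 ± 55.5 in fibroblasts, 255 ± 16.9 in endothelial cells, 226 ± 43.1 in endocardial cells and 60.5 ± 19.9 in macrophages. Endocardial cells exceeded macrophages by 1.92 on the log2 scale (edgeR, adjusted p = 4.00e-09), and fibroblasts exceeded endothelial cells by 0.34 (adjusted p = 0.00835; 0.30 and 0.0560 without control_diet 1). The other neighbours did not differ (adjusted p = 0.218 and 0.261). Sult1a1 (chr7:126672865-126676432, minus strand), a sulfotransferase that conjugates phenols and is a target of glucocorticoids in rat liver, was lowest in the 2 classes where Klf9 was highest. It averaged 182 ± 42.1 CPM in endothelial cells, 133 ± 29.5 in endocardial cells, 132 ± 10.7 in macrophages, 37.9 ± 6.41 in pericytes and 10.8 ± 3.31 in fibroblasts. Endothelial cells exceeded endocardial cells by 0.44 (adjusted p = 0.00144), macrophages exceeded pericytes by 1.83 (5.75e-12) and pericytes exceeded fibroblasts by 1.80 (5.25e-10). Sult1a1 overlaps Sgf29 on the other strand.

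Mt1 (chr8:94179082-94180327, plus strand), a metallothionein that binds zinc and copper and responds to metals and glucocorticoids alike, was abundant in macrophages and sparse in endothelial cells. It averaged 1604 ± 342 CPM in macrophages, 491 ± 152 in fibroblasts, 104 ± 7.68 in pericytes, 50.2 ± 85.0 in endocardial cells and 14.1 ± 7.48 in endothelial cells. Macrophages exceeded fibroblasts by 1.73 on the log2 scale (edgeR, adjusted p = 0.000469) and fibroblasts exceeded pericytes by 2.24 (0.000532). The 2 lower steps did not pass (adjusted p = 0.0945 and 0.118). Endothelial cells over pericytes, which are not neighbours in this order, stood at −2.90 (edgeR, adjusted p = 0.000249).

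The RefSeq table (GRCm38.p6) held promoter windows, from 250 bases before to 50 after a start site, for 8 of the 10 genes; Nr3c1 and Zbtb16 were not among them. Both strands were searched for the glucocorticoid half-site AGAACA, which 18.9% of the 32544 distinct promoters hold, for the E-box CACGTG of clock factors (7.17%), for the core of the metal response element, TGCACNC or TGCGCNC (25.9%), and for the full palindrome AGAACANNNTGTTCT (0.00922%, 3 promoters, none of these genes). The half-site occurred in Sult1a1, at −212 and −34, and once, at −185, in the second of 3 listed starts of Tsc22d3. The E-box occurred in Fkbp5 at −169 and in the first start of Per1 at −166. Mt1 had 3 metal response cores, at −23, 3 and 21, as many as 1.99% of promoters have. Nr3c2 had 1 at −29, Hsd11b1 1 at −237 and the second start of Per1 1 at −69. A match describes these letters and shows no binding. The 3 windows below are those with a half-site or with more than 1 metal response core, written 5′ to 3′ on the strand of the gene, with half-sites in capitals for Sult1a1 (chr7:126676369-126676668) and Tsc22d3 (chrX:140600473-140600772) and metal response cores in capitals for Mt1 (chr8:94178839-94179138).
Sult1a1: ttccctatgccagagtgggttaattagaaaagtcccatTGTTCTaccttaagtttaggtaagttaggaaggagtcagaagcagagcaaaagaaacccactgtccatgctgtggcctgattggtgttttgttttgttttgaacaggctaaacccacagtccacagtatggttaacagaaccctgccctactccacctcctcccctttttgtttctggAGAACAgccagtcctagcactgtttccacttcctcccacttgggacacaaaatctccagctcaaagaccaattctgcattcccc
Tsc22d3: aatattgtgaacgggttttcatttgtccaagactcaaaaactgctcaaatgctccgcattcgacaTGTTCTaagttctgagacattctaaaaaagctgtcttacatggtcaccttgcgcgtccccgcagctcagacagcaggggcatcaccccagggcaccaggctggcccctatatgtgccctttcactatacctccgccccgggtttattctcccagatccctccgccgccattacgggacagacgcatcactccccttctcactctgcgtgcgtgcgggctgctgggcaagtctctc
Mt1: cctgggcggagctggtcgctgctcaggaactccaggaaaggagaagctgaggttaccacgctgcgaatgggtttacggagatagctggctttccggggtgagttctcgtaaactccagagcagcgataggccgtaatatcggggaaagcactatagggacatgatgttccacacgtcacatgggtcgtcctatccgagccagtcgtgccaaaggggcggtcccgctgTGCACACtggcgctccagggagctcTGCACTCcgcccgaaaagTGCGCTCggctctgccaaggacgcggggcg

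For diet, the libraries were compared 2 against 2 within each class, as log2 fold of high_fibre over control_diet, with an adjusted p under 0.05 as the threshold. Of the 10 genes, Mt1 in endothelial cells was the only one to pass in edgeR with these settings. In fibroblasts 0 of 10 passed (0.022% of 13634 genes tested did), in endothelial cells 1 of 10 (0.0489% of 12282), in endocardial cells 0 of the 6 that passed the filter on low counts (0.0361% of 8307), in macrophages 0 of 10 (0.0% of 11566, with 467 genes at an unadjusted p under 0.05) and in pericytes 0 of 10 (0.0648% of 9262). With DESeq2, Hsd11b1 in fibroblasts also passed (0.39, adjusted p = 0.0493). Where a library is left out below, 1 diet has a single library, which is assumed to vary as the 2 of the other diet do, so a call made that way sets 1 library against 2 and has no spread of its own for that diet. A gene that missed the threshold is not thereby shown to be at the same level in both diets. Keeping every shared barcode, or removing them all, left Mt1 called (1.40 and 1.41, adjusted p = 0.0115 and 0.0180) and none of the others.

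Counted instead by whether both high_fibre libraries lay on 1 side of both control_diet libraries, more of the set lay higher than lower in fibroblasts. There 6 of 10 were higher without overlap and 0 lower, where 19.7% of all genes were higher and 15.0% lower. In endothelial cells 5 were higher and 0 lower (17.3% and 18.4% of all genes), in the 6 tested in endocardial cells 3 and 0 (14.5% and 18.0%), in macrophages 3 and 0 (19.9% and 13.2%) and in pericytes 2 and 2 (18.0% and 14.8%). The counts in macrophages and in pericytes are close to the background. The genes of each set share libraries, so these counts are a description.

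Neither receptor was called for diet in any class where it was tested. Nr3c1 in fibroblasts stood at 235 and 243 CPM in high_fibre libraries, against 259 and 235 CPM in control_diet libraries (−0.06, SE 0.0833). In endothelial cells it was 252 and 248, against 255 and 231 CPM in controls (0.05, SE 0.0930). In endocardial cells it was 182 and 159, against 162 and 147 CPM in controls (0.15, SE 0.155). The groups overlapped in all 5 classes. Macrophages had 206 and 210 CPM in high_fibre libraries, against 236 and 207 CPM in control_diet libraries (−0.12, SE 0.103), and pericytes 269 and 240, against 262 and 277 CPM (−0.10, SE 0.142). None passed the test (edgeR, adjusted p = 0.973 to 1.00). Nr3c2 in fibroblasts was 7.18 and 7.45 CPM in high_fibre libraries, against 6.12 and 5.56 CPM in control_diet libraries, without overlap (0.30, SE 0.164, adjusted p = 0.910). In endothelial cells it was 6.41 and 10.01 CPM, against 6.93 and 5.14 CPM in controls (0.46, SE 0.266), with overlap. Macrophages and pericytes overlapped as well, at folds of 0.47 (SE 0.492) and 0.55 (SE 0.483), so the folds of this sparse gene were larger than those of Nr3c1 and less precise. Endocardial cells, where Nr3c2 was not tested, went the other way without overlap. They held 7.51 and 10.2 CPM in high_fibre libraries, against 10.33 and 13.8 CPM in control_diet libraries, on 5 and 11 against 12 and 11 UMIs.

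Hsd11b1, which regenerates active hormone, was higher without overlap in fibroblasts and lower without overlap in pericytes. Fibroblasts held 223 and 214 CPM in high_fibre libraries, against 159 and 170 CPM in control_diet libraries, a log2 fold of 0.39 (SE 0.0876, edgeR, adjusted p = 0.309). Pericytes held 46.8 and 43.1 CPM, against 84.1 and 47.0 CPM in controls (−0.62, SE 0.213, adjusted p = 0.824). In pericytes control_diet 1 alone stood apart, and the nearest libraries of the 2 diets were 46.8 and 47.0 CPM. The 4 UMI sums in endothelial cells were 17 and 35 in high_fibre libraries, against 14 and 6 in control_diet libraries, and in macrophages 19 and 19, against 5 and 3. Scaled for depth, endothelial cells held 1.91 and 2.80 CPM, against 1.26 and 0.717 CPM in controls (1.24, SE 0.469, edgeR, adjusted p = 0.674). Macrophages held 2.33 and 1.685 CPM, against 0.801 and 0.881 CPM in controls (1.21, SE 0.546), and were not called. As a share of the fibroblast level, endothelial Hsd11b1 stood at 0.859% and 1.31% in high_fibre libraries, against 0.793% and 0.422% in control_diet libraries. Fibroblast markers outside the gate stood at 0.508% and 0.669%, against 0.447% and 0.303%, which ranks the 4 libraries the same way. In macrophages Hsd11b1 stood at 1.05% and 0.786% in high_fibre libraries, against 0.504% and 0.519% in control_diet libraries. The markers stood there at 0.748% and 0.861%, against 0.815% and 0.594%, which ranks the 4 libraries differently. The part of fibroblast RNA in the Hsd11b1 level of either class was not tested. A joint fit asked whether the diet difference varied between classes: 10 of 13938 genes did (0.0717%) and 0 of these 10, with adjusted p of 0.865 for Hsd11b1, 0.542 for Tsc22d3, 0.663 for Sult1a1 and 0.900 for Mt1.

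Among the feedback genes, Fkbp5 was higher without overlap in 4 classes and called in none. In fibroblasts it stood at 39.2 and 26.3 CPM in high_fibre libraries, against 18.9 and 19.4 CPM in control_diet libraries (log2 fold 0.76, SE 0.207, edgeR, adjusted p = 0.597). In macrophages it stood at 25.4 and 17.1 CPM, against 13.1 and 13.5 CPM in controls (0.64, SE 0.228, adjusted p = 1.00). The control libraries lay close together in both classes and high_fibre 1 was highest. Pericytes held 14.6 and 11.3 CPM, against 6.70 and 7.05 CPM in controls (0.88, SE 0.440), on 23 and 22 against 9 and 6 UMIs. Endothelial cells held 9.34 and 7.29 CPM, against 5.04 and 7.29 CPM in controls (0.44, SE 0.250), where high_fibre 2 and control_diet 2 were all but equal. With high_fibre 1 alone against the controls, Fkbp5 in fibroblasts passed the test (1.03, adjusted p = 0.0170); without high_fibre 1 its fold was 0.44.

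Tsc22d3 in fibroblasts was 381 and 317 CPM in high_fibre libraries, against 283 and 273 CPM in control_diet libraries (log2 fold 0.31, SE 0.104, edgeR, adjusted p = 0.624). In endocardial cells it was 252 and 160 CPM, against 149 and 129 CPM in controls (0.56, SE 0.196, adjusted p = 0.999), and with high_fibre 1 alone against the controls it passed there (0.87, adjusted p = 0.0261). Pericytes went the other way, with 141 and 133 CPM in high_fibre libraries, against 159 and 153 CPM in control_diet libraries (−0.21, SE 0.152). All 3 classes were without overlap, while endothelial cells (195 and 165, against 171 and 153 CPM in controls) and macrophages (459 and 358, against 377 and 315 CPM) overlapped.

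Per1 and Klf9 overlapped between the diets in all classes where they were tested. Per1 in macrophages ranged from 27.8 to 51.2 CPM in high_fibre libraries, against 27.9 to 40.8 CPM in control_diet libraries. Klf9 in fibroblasts was 400 and 289 CPM in high_fibre libraries, against 337 and 278 CPM in control_diet libraries, and in macrophages 85.7 and 38.9 CPM, against 65.2 and 52.3 CPM. Without high_fibre 1 the folds turned below 0 for both genes in macrophages (−0.37 for Per1, −0.64 for Klf9), against 0.13 and 0.04 with it. For both genes high_fibre 1 and high_fibre 2 differed from each other by more than the control libraries did in these classes.

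Zbtb16 was set apart by 1 library. In endothelial cells it stood at 41.0 and 6.81 CPM in high_fibre libraries, against 6.39 and 1.67 CPM in control_diet libraries (log2 fold 2.46, SE 1.53, edgeR, adjusted p = 0.944). In pericytes it stood at 45.6 and 7.70 CPM, against 8.19 and 3.53 CPM in controls (1.98, SE 1.60), and in fibroblasts at 61.6 and 25.5 CPM, against 25.0 and 16.8 CPM (1.00, SE 0.630). In each of these classes high_fibre 1 was far above the other 3 libraries, and without it the folds were 0.71, 0.27 and 0.23. Endocardial cells held 20 and 7 Zbtb16 UMIs in high_fibre libraries, against 6 and 3 in control_diet libraries. Macrophages did not share the excess, with 16.3 and 13.8 CPM, against 16.2 and 11.2 CPM in controls. In endothelial cells of high_fibre 1 the 364 UMIs were spread over 289 cells, with at most 4 in 1 cell. Without high_fibre 2, which leaves high_fibre 1 alone against the controls, the pericyte fold was 2.82 (adjusted p = 4.82e-09), with the spread taken from the control libraries only.

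Sult1a1 was higher without overlap in 4 classes, including endothelial and endocardial cells. In endothelial cells it stood at 240 and 182 CPM in high_fibre libraries, against 166 and 140 CPM in control_diet libraries (log2 fold 0.47, SE 0.146, edgeR, adjusted p = 0.602). In endocardial cells it stood at 161 and 156 CPM, against 107 and 108 CPM in controls (0.58, SE 0.159, adjusted p = 0.575). The endocardial libraries of a diet lay close together and the diets apart. Fibroblasts held 14.9 and 12.0 CPM, against 7.38 and 8.97 CPM in controls (0.72, SE 0.170, adjusted p = 0.382), and macrophages 147 and 131 CPM, against 123 and 128 CPM (0.12, SE 0.113). With control_diet 2 as the only control the endothelial fold passed (0.59, adjusted p = 0.00108), and without high_fibre 1 it was 0.26. Pericytes overlapped, with 47.5 and 34.4 CPM in high_fibre libraries, against 35.7 and 34.1 CPM in control_diet libraries.

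Mt1 rose in endothelial cells, to 21.9 and 19.1 CPM in high_fibre libraries, against 7.11 and 8.36 CPM in control_diet libraries, a log2 fold of 1.42 (SE 0.166, edgeR, adjusted p = 0.0115). The diets were far apart and the libraries of a diet close, at 195 and 238 UMIs against 79 and 70 UMIs. In high_fibre 1, 1 cell held 40 of the 195 UMIs. The call was lost without high_fibre 1 (1.31, adjusted p = 0.0760), with a stricter marker gate (1.10, 0.104), with a limit of 10% mitochondrial UMIs (1.74, 0.112) and in male cells only (1.21, 0.741); it held in female cells only (1.51, 0.0154). In fibroblasts, where Mt1 is abundant, the libraries overlapped at 716 and 400 CPM, against 447 and 403 CPM in controls (0.38, SE 0.349), and the fold was −0.11 without high_fibre 1 and 0.75 with high_fibre 1 alone against the controls, with a call (adjusted p = 0.0356). Macrophages overlapped at 2096 and 1492 CPM, against 1523 and 1305 CPM in controls (0.31, SE 0.176). In endocardial cells 118 and 19 UMIs stood against 4 and 2, and 1 cell of high_fibre 1 held 111 of the 118; with that library alone against the controls the fold was 5.81 (adjusted p = 2.51e-08). Pericytes held 109 and 109 CPM, against 103 and 92.9 CPM in controls.

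In the endothelial sums, macrophage markers and some other marker lists were higher in high_fibre libraries, as Mt1 was. Fcer1g (1.65), Tyrobp (1.81) and Wfdc17 (1.40), genes of myeloid cells, were called higher in endothelial cells beside Mt1 and Cebpb (0.82), and Slc15a2 was the only gene called lower (−3.53). In endothelial cells, the 7 macrophage markers outside the gate came to 47.9 and 74.0 CPM for high_fibre libraries, against 26.8 and 27.2 CPM for control_diet libraries. Of the 7, 6 were higher without overlap and none was at 0 in all 4 libraries, though Fcgr1 was at 0 in control_diet 2. As a share of the level in macrophages of the same library, these markers stood at 0.298% and 0.444% in high_fibre libraries, against 0.163% and 0.163% in control_diet libraries. Mt1 stood at 1.05% and 1.28%, against 0.467% and 0.641%. The share of Mt1 thus exceeded that of the macrophage markers in each library, and both were higher in the high_fibre libraries. Globin and other erythroid transcripts summed to 7034 and 1740 CPM in the same cells, against 1280 and 1582 CPM in controls. Fibroblast markers outside the gate summed to 191 and 260 CPM in these endothelial cells, against 164 and 114 CPM in controls, with 5 of 6 higher without overlap. Smooth muscle markers summed to 126 and 134 CPM, against 89.1 and 60.9 CPM (4 of 5), and lymphatic markers to 234 and 269 CPM, against 200.1 and 145 CPM (4 of 4). No gate excluded lymphatic cells, and in macrophages the lymphatic markers summed to 560 and 705 CPM, against 627 and 685 CPM. Monocyte markers in endothelial cells summed to 114.9 and 82.3 CPM in high_fibre libraries, against 71.1 and 68.7 CPM in controls (4 of 5). Pericyte markers outside the gate summed there to 217.5 and 198.1 CPM, against 189.9 and 135.6 CPM (4 of 6). Schwann cell markers were sparse, at 4.95 and 7.05 CPM, against 4.86 and 0.717 CPM (3 of 5). Sums of B cell, T cell, NK cell, neutrophil and cardiomyocyte markers overlapped between the diets in endothelial cells. Endocardial markers outside the gate were lower there, at 746 and 762 CPM, against 818 and 816 CPM. The part of any of these RNAs in the Mt1 difference was not tested.

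The macrophage markers outside the gate were higher in 3 further classes too. They summed to 22.1 and 36.8 CPM in fibroblasts of high_fibre libraries, against 15.7 and 16.1 CPM in control_diet libraries. In endocardial cells they summed to 113 and 43.6 CPM, against 16.4 and 25.1 CPM, and in pericytes to 47.5 and 60.6 CPM, against 27.5 and 28.2 CPM. In each of the 3 classes 5 of the 7 markers were higher without overlap. Within macrophages the sums were 16090 and 16660 CPM, against 16480 and 16730 CPM. The part of macrophage RNA in the diet differences of the 10 genes in these classes was not tested.

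**Figure D2:**
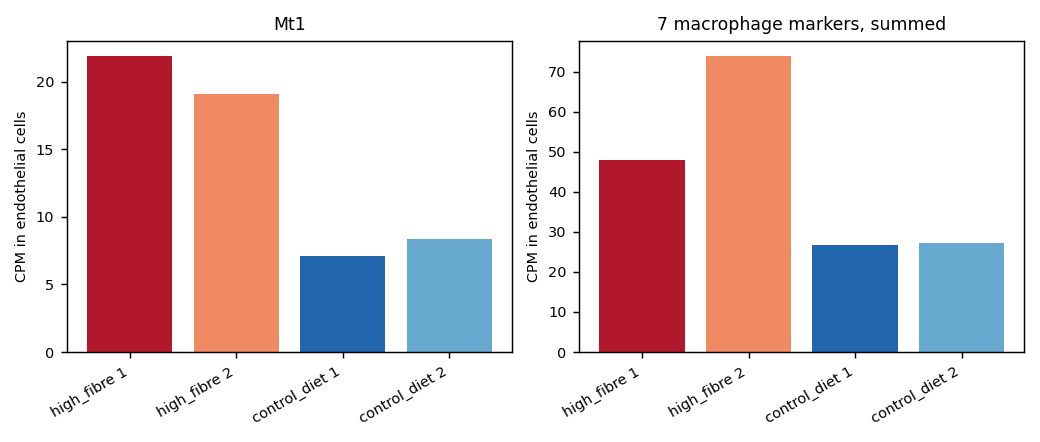
Mt1 (left) and the sum of 7 macrophage markers outside the gate (right) in endothelial cells, in CPM, 1 bar per library without error bars. Mt1 stands at 21.9 and 19.1 CPM in high_fibre libraries, against 7.11 and 8.36 CPM in control_diet libraries, and the markers at 47.9 and 74.0 CPM, against 26.8 and 27.2 CPM.

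The library high_fibre 1 recurs across these results. Of the 50 pairs of a gene and a class, high_fibre 1 had the highest level in 33, high_fibre 2 in 9, control_diet 1 in 5 and control_diet 2 in 3. It was highest in all 5 classes for Zbtb16, Klf9 and Sult1a1 and in 4 for Fkbp5, Tsc22d3 and Mt1, but in 1 for Nr3c1 and 0 for Nr3c2. Among all genes tested it was highest for 29.3% in fibroblasts, 26.8% in endothelial cells, 26.1% in endocardial cells, 27.9% in macrophages and 25.2% in pericytes, against 8, 7, 6, 8 and 4 of these 10. In fibroblasts, leaving it out gave log2 folds of 0.36 for Hsd11b1, 0.44 for Fkbp5, 0.17 for Tsc22d3, 0.23 for Zbtb16, 0.56 for Sult1a1 and 0.32 for Nr3c2. Mt1 (−0.11), Per1 (−0.12) and Klf9 (−0.11), which were above 0 with all 4 libraries (0.38, 0.18 and 0.15), then stood below 0, as Nr3c1 did with it and without it (−0.04).

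**Figure D3:**
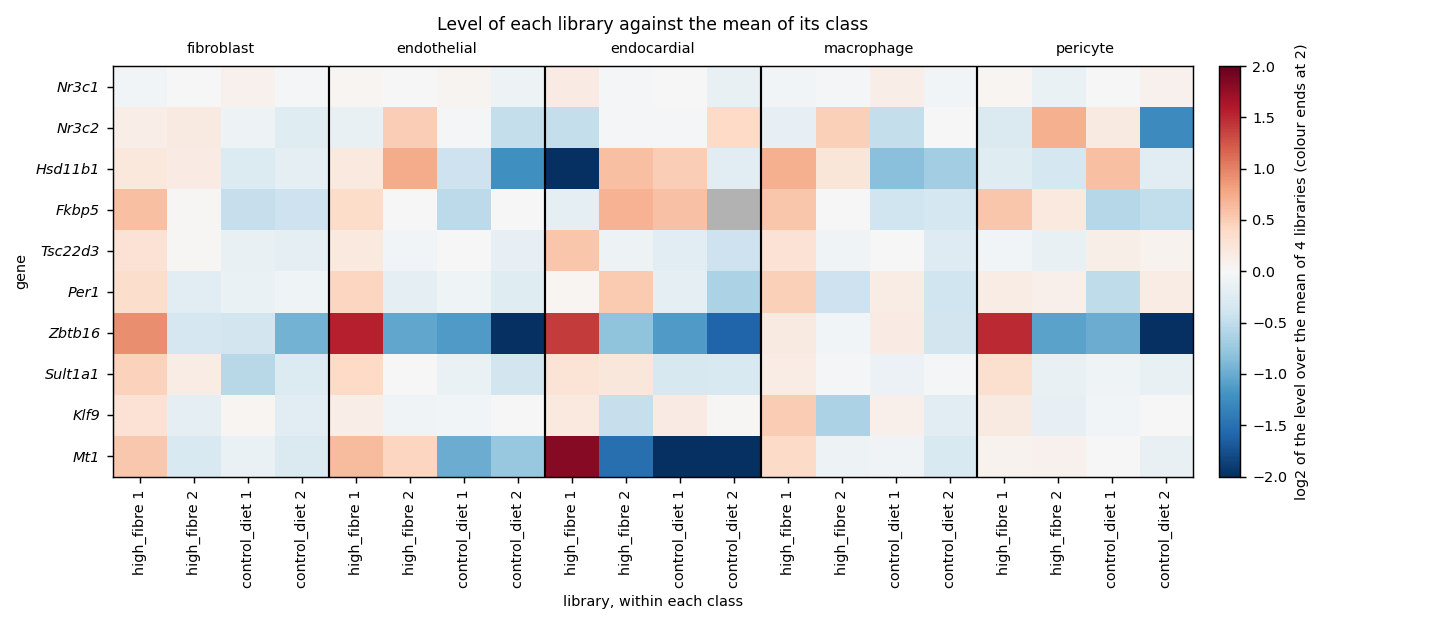
Each cell shows the level of a gene in 1 library as log2 of its ratio to the mean of the 4 libraries of that class, red above and blue below the mean, with colours ending at 2 in either direction and a level of 0 in grey. The high_fibre 1 column lies above the mean in every class for Zbtb16, Klf9 and Sult1a1, while Nr3c1 is near white throughout. In some classes that excess is about as pale as Nr3c1, for example for Zbtb16 in macrophages.

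All 4 libraries held male and female cells, told apart by UMIs of the Y-linked genes Ddx3y, Eif2s3y, Kdm5d and Uty or of Xist, so each held cells of more than 1 animal. The male share of the sexed cells was 67.1% and 40.2% in the high_fibre libraries, against 25.5% and 43.6% in the control_diet libraries, and in fibroblasts 66.98% and 38.7%, against 31.5% and 42.6%. A test of male over female sums within each library, added after the data were seen, gave the set's only call in fibroblasts. Fkbp5 was higher in male fibroblasts, at 46.2, 34.4, 25.0 and 26.2 CPM in high_fibre 1, high_fibre 2, control_diet 1 and control_diet 2, against 19.3, 20.5, 15.8 and 13.9 CPM in female fibroblasts of the same libraries. The log2 difference was 0.90 (SE 0.103, edgeR, adjusted p = 0.00148), in the same direction in 4 of 4 libraries and 0.77 to 0.98 with each library left out, called each time.

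Hsd11b1 had the same arrangement in size but not in the test. Male fibroblasts held 254, 331, 217 and 209 CPM in the same order of libraries, against 121, 123, 132 and 130 CPM in female fibroblasts. Male cells were higher in 4 of 4 libraries, and the female values of all 4 libraries lay between 121 and 132 CPM. The log2 difference was 1.00 (SE 0.156, adjusted p = 0.0954), and without high_fibre 2 it was 0.83 and passed (adjusted p = 0.00179). Nr3c1 stood at 231, 233, 248 and 214 CPM in male fibroblasts, against 256, 252, 266 and 255 CPM in female fibroblasts (−0.14, adjusted p = 0.227). Zbtb16 stood at 74.8, 37.5, 23.9 and 19.5 CPM in male fibroblasts, against 22.3, 14.8, 25.2 and 13.9 CPM in female fibroblasts (0.94, SE 0.399, adjusted p = 0.513). In male endothelial cells of high_fibre 1 Zbtb16 was 48.9 CPM, against 12.5 CPM in female ones, and the other 3 libraries lay between 1.24 and 3.46 CPM in male and between 1.91 and 9.59 CPM in female cells.

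**Figure D4:**
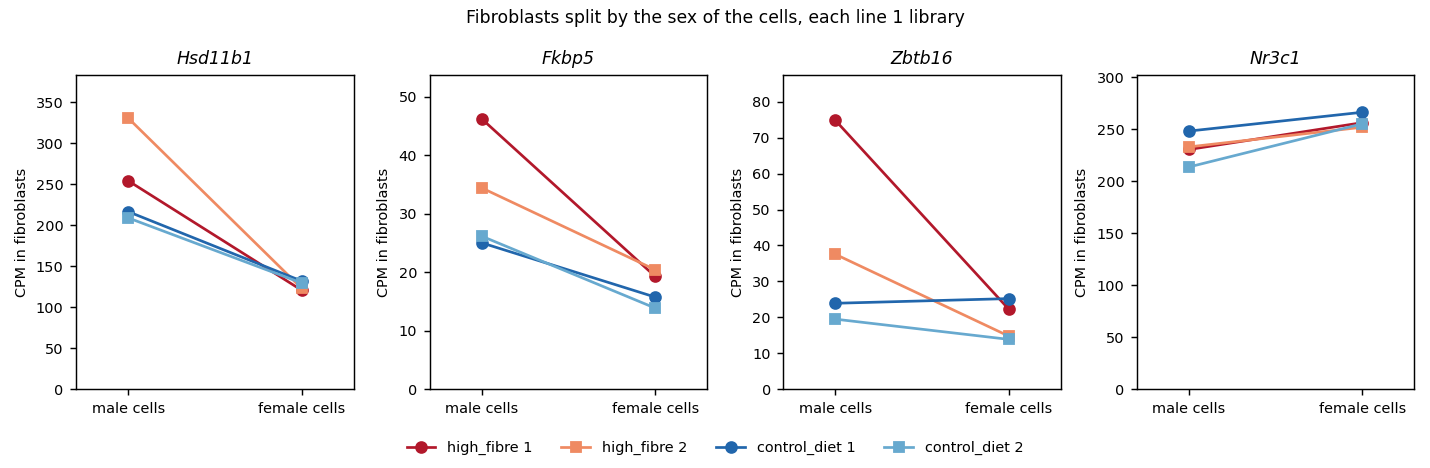
Levels (CPM, linear axis from 0) of 4 genes in male (left) and female (right) fibroblasts, 1 line per library, with high_fibre libraries in red and orange and control_diet libraries in blue. Fkbp5 and Hsd11b1 are higher in male cells of all 4 libraries, Zbtb16 in 3 of 4, and Nr3c1 is lower in male cells of all 4.

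Counted over the set, 1 of 10 genes was called between the sexes in fibroblasts (1.31% of 12108 genes tested), 0 of 9 in endothelial cells (0.176%), 0 of 4 in endocardial cells (0.0179%), 0 of 8 in macrophages (0.101%) and 0 of 6 in pericytes (0.0909%). The diet difference within 1 sex of fibroblasts was not called for any of the 10. In male cells the log2 folds were 0.45 for Hsd11b1, 0.66 for Fkbp5, 0.40 for Tsc22d3, 1.35 for Zbtb16 and 0.73 for Sult1a1. In female cells they were −0.12, 0.39, 0.11, −0.22 and 0.75 in the same order of genes. Hsd11b1 and Zbtb16 had folds of opposite sign in male and female cells, whereas those of Sult1a1 were alike. The difference of the diet folds between the sexes was not tested.

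Related genes gave few calls for diet. Of 18 genes of the steroid receptor machinery, all tested in fibroblasts, none was called and 13 were above 0, at a median log2 fold of 0.03 beside 0.00 for all genes. The 3 with the largest fold there were Hsd11b2, which inactivates the hormone (−1.03), the chaperone Hsp90aa1 (0.48) and the corepressor Nrip1 (0.38). Of 20 other genes that respond to glucocorticoids, none was called in fibroblasts and 17 were above 0, at a median of 0.24. Lcn2 (1.36), Angptl4 (1.27) and Glul (0.49) had the largest folds, of which Lcn2 rests on levels below 1 CPM. The transcription factor Cebpb was called in endothelial cells, at 50.6 and 46.1 CPM in high_fibre libraries, against 29.3 and 25.6 CPM in control_diet libraries (0.82, edgeR, adjusted p = 0.0371). In macrophages Cebpb stood at 1416 and 806 CPM, against 1133 and 829 CPM in controls, and the macrophage markers were higher in the same endothelial sums.

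Of 15 clock genes, none was called in any class, and in fibroblasts 7 were above 0, at a median of −0.01. Ciart (0.74), Bhlhe41 (−0.51) and Nr1d1 (0.44) had the largest folds. All 12 immediate early genes, which respond to many stimuli within minutes, were above 0 in fibroblasts, at a median of 0.17, with Atf3 (0.68), Ier3 (0.61) and Fosb (0.33) largest and none called. In endothelial cells 4 of the 12 were above 0. All 8 heat shock genes were above 0 in each of the 5 classes, at medians of 0.60 to 0.81, with Hspa1a (1.12), Hspb1 (1.06) and Hspa1b (1.06) largest in fibroblasts. In pericytes Hspa1b was called, at 963 and 735 CPM in high_fibre libraries, against 427 and 463 CPM in control_diet libraries (0.92, adjusted p = 0.000118), as was Dnajb1, at 123 and 83.7 CPM, against 51.4 and 47.0 CPM (1.03, adjusted p = 0.0163). The other metallothionein Mt2 stood in fibroblasts at 71.4 and 35.3 CPM in high_fibre libraries, against 42.9 and 48.3 CPM in controls, and the zinc exporter Slc30a1 at 8.64 and 10.0 CPM, against 9.71 and 8.65 CPM. In endothelial cells, where Mt1 was called, Mt2 was sparse and higher without overlap, at 1.13 and 0.961 CPM, against 0.540 and 0.358 CPM in controls (1.16, adjusted p = 0.870). Slc30a1 overlapped there, at 54.6 and 55.5 CPM, against 53.1 and 56.5 CPM. The part of heat shock and immediate early responses in the differences of the 10 genes was not tested.

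Over the 20 sums of library and class, the genes with the level pattern most like that of Nr3c1 were Frmd4a, Hspa2 and Filip1l (Pearson's r of log2(CPM + 1) 0.91, 0.89 and 0.89, among 13938 genes). For Hsd11b1 they were Dact1, Col6a2 and Serping1 (0.99, 0.99 and 0.98). Those for Fkbp5 were Adam19, Lrrk1 and Ckb (0.93, 0.91 and 0.91), and those for Tsc22d3 were S100a4, Gadd45b and Apex1 (0.95, 0.95 and 0.94). The 20 sums share 4 libraries and their depth, so these values describe the pattern across classes.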

How the data were processed

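Per the labels' protocols, heart cells were sequenced with the 10x Genomics 3′ kit, and per the submitters' processing notes the authors made the matrices with Cell Ranger 3.1.0 on mm10. The deposited values are raw UMI counts per gene and barcode, with no barcode under 500 UMIs. Other steps are not given in the sources used here.

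Barcodes were kept from 500 UMIs and 250 genes upward, up to 20% mitochondrial UMIs, and shared barcodes were treated as the report says. Gates needed 10 UMIs of Col1a1 and Dcn, 3 of Pecam1 and Cdh5, 3 of Npr3, 5 of C1qa or 3 of Kcnj8 and Vtn, with few of the other classes' genes (at most 4, 1, 1, 2 and 1; for endocardial cells, at most 2 of Col1a1 in place of the fibroblast limit). Doublets were treated only through these limits. Kept cells per library had medians of 7313 and 7382 UMIs in the high_fibre libraries, against 8767 and 7913.5 in the control_diet libraries, and the smallest class, endocardial, had 61 and 109 cells, against 104 and 63.

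Within each library the UMI counts of a class were added up. Diet, class and sex were tested with edgeR 4.0.16 (R 4.3.3; quasi-likelihood, robust, TMM, filterByExpr with a minimum count of 10), with Benjamini-Hochberg adjustment over all genes tested in a comparison. With 2 libraries a group, no exact permutation test could pass, so none was run. SE is the log2 fold divided by the square root of F. The scripts were tested on simulated data. The members and lists were chosen with earlier results of these data known. All 10 members were named in each class; of the other lists, the genes called and otherwise the 3 with the largest fold in fibroblasts; and for 4 members the 3 most like genes. Alternatives were DESeq2 1.42.0, RLE and total-UMI scaling, no filter on low counts, each library left out, the repeat number as a block, a stricter gate, a mitochondrial limit of 10%, cells of 1 sex, and shared barcodes all kept or all removed. Intervals and floors cover counting error only.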

Additional observations from a re-analysis of the deposited data

How the results depend on the processing

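The number of libraries limits every comparison: with 2 a diet, and repeat numbers that mark no known pairing, few calls can be made and a single library can add or remove them. Endocardial cells, with 61 to 109 a library, and the sparse genes Nr3c2 and Fkbp5 limit precision further. The 220 counts of genes called between classes, over all alternatives, stayed within 1.5 times. Of the 664 diet folds recomputed, over all 10 genes in the classes where they were tested, 611 kept sign and side of the threshold; of 242 folds between classes, 225 did.

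Over all genes, 3, 6, 3, 0 and 6 were called for diet in fibroblasts, endothelial cells, endocardial cells, macrophages and pericytes. DESeq2 called 45, 29, 1 and 3 in fibroblasts, endothelial cells, endocardial cells and pericytes, with 1 of the 10 genes in fibroblasts. Without the filter on low counts the numbers were 263, 233, 43, 68 and 20, with 3 of the 10 in fibroblasts and 2 in endothelial cells. Total-UMI scaling called 26 in endothelial cells. The mitochondrial limit of 10% called 2 there, and the stricter gate 0 in endocardial cells; both, and male cells only, left 0 of the 10 in endothelial cells. Male cells only gave 21 in fibroblasts, 0 in endocardial cells and 3 in pericytes. Female cells only gave 20 in endothelial cells, 0 in endocardial cells, 1 in macrophages and 3 in pericytes. Diet by class called 10 genes, 488 without the filter (3 of the 10), 5 with the stricter gate, 0 at 10% mitochondrial UMIs and 2 with all shared barcodes removed. The sex test without the filter called 352 in fibroblasts (2 of the 10), 95 in endothelial cells, 27 in endocardial cells (1 of the 10), 79 in macrophages and 32 in pericytes; total-UMI scaling called 3 in pericytes. The cause of each was not tested.

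Leaving out 1 library at a time gave 4 to 63 diet calls in fibroblasts (0 to 2 of the 10), 7 to 356 in endothelial cells (0 to 2), 1 to 57 in endocardial cells (0 to 2), 0 to 61 in macrophages and 6 to 34 in pericytes (0 to 1). Diet by class ranged from 3 to 127 (0 to 2). The sex test ranged from 76 to 169 in fibroblasts (1 to 3), 7 to 30 in endothelial cells, 1 to 3 in endocardial cells, 12 to 31 in macrophages and 1 to 21 in pericytes. Left out 1 at a time, the libraries gave folds on both sides of 0 for Nr3c1 in endothelial cells (−0.027 to 0.12), Nr3c2 in pericytes (−0.036 to 1.55), Hsd11b1 in endocardial cells (−2.44 to 0.40), Zbtb16 in macrophages (−0.12 to 0.39), Sult1a1 in pericytes (−0.049 to 0.43) and Mt1 in fibroblasts (−0.11 to 0.75). So they did for Per1 in fibroblasts (−0.12 to 0.45), endothelial cells (−0.029 to 0.59), macrophages (−0.37 to 0.52) and pericytes (−0.047 to 0.62), and for Klf9 in fibroblasts (−0.11 to 0.37), endothelial cells (−0.039 to 0.16), endocardial cells (−0.53 to 0.12), macrophages (−0.64 to 0.51) and pericytes (−0.15 to 0.21).

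In female cells only, folds turned for Hsd11b1 (−0.12) and Zbtb16 (−0.22) in fibroblasts, Fkbp5 (−0.079), Tsc22d3 (−0.020) and Klf9 (−0.090) in endothelial cells, Per1 (−0.11), Zbtb16 (−0.31) and Klf9 (−0.11) in macrophages, and Tsc22d3 (0.011), Klf9 (−0.037) and Mt1 (−0.031) in pericytes. In male cells only, Nr3c1 (−0.20) and Klf9 (0.051) turned in endocardial cells. Removing all shared barcodes turned Hsd11b1 in endocardial cells (0.076) and Zbtb16 in macrophages (−0.028), and the stricter gate Sult1a1 in pericytes (−0.013). Total-UMI scaling turned Tsc22d3 between macrophages and fibroblasts (−0.034) and between endothelial cells and pericytes (−0.081).

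Same-numbered libraries deviated from their group means with correlations of 0.04 to 0.22, and the labels do not say that a number marks a shared batch. With the repeat number as a replicate block, 0, 28, 16, 8 and 39 genes were called in fibroblasts, endothelial cells, endocardial cells, macrophages and pericytes, among them 2, 1 and 1 of the 10 in endothelial cells, endocardial cells and pericytes: Mt1 (1.42, edgeR, adjusted p = 0.0261) and Zbtb16 (2.53, 0.00542) in endothelial cells, Mt1 in endocardial cells and Zbtb16 in pericytes (2.22, 4.47e-06).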
